A study of Mus musculus with 21 samples.

Results

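The NF-kB subunits and IkB proteins are 10 mouse genes, read here as the rows of a count table of 47069 gene identifiers whose Ensembl identifiers map to Rela, Rel, Relb, Nfkb1, Nfkb2, Nfkbia, Nfkbib, Nfkbie, Bcl3 and Nfkbiz. All 10 had a row, and all 10 passed the filter on low counts that left 15581 genes for testing. RNA was sequenced from macrophages that were grown with M-CSF, a macrophage growth factor, out of marrow of C57BL/6 mice without a mutation, aged 8 to 10 weeks. The groups were IL_TNF_6h and IL_TNF_24h, which received IL-4, IL-13 and TNF, TNF_6h and TNF_24h, which received TNF, IL_6h and IL_24h, which received IL-4 and IL-13 (together called IL here), and Ctrl_0h, which received nothing and was sampled at 0 h. Each of the 7 groups had 3 libraries, 21 in all, each cytokine was given at 10 ng/ml, and h is the time in hours with the cytokines. No untreated cells were sampled at 6 or 24 h, so every difference from Ctrl_0h also carries the time in culture. The labels do not say whether the 3 libraries of a group are separate cultures or animals, so p-values measure the spread between these libraries only, which may be technical.

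NF-kB transcription factors are dimers of 5 related subunits. RelA, c-Rel and RelB carry a transactivation domain, while p50 and p52 are cut from the longer precursors p105 and p100, the products of Nfkb1 and Nfkb2. IkB proteins hold the dimers in the cytoplasm until a kinase complex marks them for destruction, which TNF triggers through its receptors within minutes, and several of these genes are themselves NF-kB targets, so that the pathway rebuilds its own inhibitors. IL-4 and IL-13 act through a separate factor, STAT6, and drive macrophages to the state called alternative activation.

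The libraries held 28.1 to 48.7 M counts (M, 1e6), and the members between 276 and 20473 counts in a library. Levels below are CPM, counts scaled to a common library total, and changes are log2 fold changes ± standard error. A gene was called when its adjusted p in edgeR's quasi-likelihood test over all 15581 genes was under 0.05. The 7 macrophage markers were all detected, with a summed level of 11567 to 39907 CPM. Lyz2, at 6147 to 32148 CPM, was the largest part of these sums. The single markers did not all follow it. Lyz2 and Csf1r were highest in a TNF_6h library, Fcgr1 in TNF_24h, Cd68 and Mertk in IL_6h, Adgre1 in IL_TNF_6h and Itgam in Ctrl_0h. Summed markers of neutrophils, fibroblasts, T and NK cells, B cells and erythroid cells stayed at or under 9.23 CPM in every library. Those of dendritic cells were 23.5 to 28.4 CPM in IL_TNF_24h and at or under 10.9 CPM in the other groups. In bulk RNA, fewer cells that express a gene and less RNA of it per cell cannot be told apart. Library Ctrl_0h 2 stood apart with counts in 27761 genes, against 16996 to 20631 in the other libraries.

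The libraries also fall into 3 sets that follow the groups. Xist was between 0 and 0.145 CPM in the 6 libraries with IL at 24 h, against 162 to 1014 CPM in all others. Ddx3y was 41.8 to 50.9 CPM in the same 6 libraries and 0 in all others. Ifi202b was 30.3 to 64.2 CPM in the 6 libraries with IL at 6 h and 0 in all others. The effect of TNF alone, the change between TNF_6h and TNF_24h, and the effect of TNF added to IL at one time stay within a set. Every other pair of groups crosses sets, so that IL or time and the set cannot be told apart there. Across sets the GC content of a transcript also moved with the result: with the genes divided by GC content into 5 groups of about equal size, the median log2 fold change in IL_6h against Ctrl_0h was 0.51 in the group with the lowest GC and -0.84 in the group with the highest. A smaller slope was present within a set, with medians of 0.14 and -0.47 in TNF_24h against Ctrl_0h. In IL_TNF_6h against IL_6h the same medians were -0.02 and -0.01. Rel, at 44.1% GC, lies in the lowest of these groups, and Bcl3, Rela, Nfkb2 and Nfkbib, at 62.6%, 59.4%, 59.3% and 58.8%, lie in the highest one. The values across sets that are named below are therefore given also with the GC trend of each library taken out, a fit of the 12852 genes with a coding transcript that was chosen after seeing the data.

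Promoter sequences, the 250 bases before and 50 bases after a gene's start, were found for 7 of the 10 members, in 9 windows, in RefSeq on the build GRCm38.p6. The promoters are shown because all 10 genes rose with TNF alone at 24 h, and a part of the promoters in this was not tested. The kappa B consensus, the 10-base motif that NF-kB dimers bind, was searched on both strands. It was present in 7 of the 9 windows, of which windows 2 and 3 of Nfkb2 overlap and share a match, and in 5 of the 7 genes, which are Rel, Nfkb2, Nfkbia, Nfkbie and Bcl3, and no match was found in the windows of Rela and Nfkbib. Of all 32851 mouse promoter windows in the same table, 8.46% hold it. Capitals mark the matches to the consensus in the following windows, which are read on the strand of the gene.
Nfkbia, chr12:55492598-55492897, minus strand: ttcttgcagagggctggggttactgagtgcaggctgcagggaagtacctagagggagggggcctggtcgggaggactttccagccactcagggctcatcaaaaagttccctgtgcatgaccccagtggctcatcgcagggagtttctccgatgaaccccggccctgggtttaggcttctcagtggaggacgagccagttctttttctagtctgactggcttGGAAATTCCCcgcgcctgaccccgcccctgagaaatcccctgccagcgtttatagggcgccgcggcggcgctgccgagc
Nfkbie, chr17:45555450-45555749, plus strand: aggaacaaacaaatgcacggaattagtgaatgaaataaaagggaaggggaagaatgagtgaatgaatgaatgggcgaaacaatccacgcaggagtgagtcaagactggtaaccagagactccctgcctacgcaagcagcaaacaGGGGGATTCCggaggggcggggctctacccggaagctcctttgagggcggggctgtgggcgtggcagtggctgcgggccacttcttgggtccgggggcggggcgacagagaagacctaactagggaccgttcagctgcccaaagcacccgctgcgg
Nfkb2, window 2, chr19:46305445-46305744, plus strand: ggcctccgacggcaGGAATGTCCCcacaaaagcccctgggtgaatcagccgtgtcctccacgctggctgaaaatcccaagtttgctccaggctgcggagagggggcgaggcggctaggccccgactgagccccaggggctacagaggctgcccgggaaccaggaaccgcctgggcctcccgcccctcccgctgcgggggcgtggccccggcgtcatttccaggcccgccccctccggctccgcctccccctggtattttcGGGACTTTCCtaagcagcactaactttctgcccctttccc
Bcl3, chr7:19822706-19823005, minus strand: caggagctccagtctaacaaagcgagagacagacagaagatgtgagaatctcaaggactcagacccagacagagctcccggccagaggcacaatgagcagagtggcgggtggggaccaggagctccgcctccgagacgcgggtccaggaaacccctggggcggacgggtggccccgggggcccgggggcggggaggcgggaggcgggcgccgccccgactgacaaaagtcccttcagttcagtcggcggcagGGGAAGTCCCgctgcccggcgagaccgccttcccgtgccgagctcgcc
Rel, chr11:23770920-23771219, minus strand: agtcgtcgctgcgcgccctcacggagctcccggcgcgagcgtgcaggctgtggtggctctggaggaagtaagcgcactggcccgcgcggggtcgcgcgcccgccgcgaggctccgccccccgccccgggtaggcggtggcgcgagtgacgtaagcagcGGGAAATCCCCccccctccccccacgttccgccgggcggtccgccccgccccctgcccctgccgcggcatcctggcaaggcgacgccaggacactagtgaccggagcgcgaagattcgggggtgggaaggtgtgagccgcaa
Rela, chr19:5637291-5637590, plus strand: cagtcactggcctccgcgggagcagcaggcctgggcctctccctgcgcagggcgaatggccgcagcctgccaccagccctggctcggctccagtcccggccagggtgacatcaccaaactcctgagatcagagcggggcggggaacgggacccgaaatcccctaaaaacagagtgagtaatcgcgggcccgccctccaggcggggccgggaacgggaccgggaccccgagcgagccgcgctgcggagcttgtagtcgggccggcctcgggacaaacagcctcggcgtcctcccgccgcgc
In Nfkbia the match ends 20 bases before the start, and in Bcl3 it lies just after it. Rel has 2 overlapping matches that begin 91 and 92 bases before the start. A match is only a description of these letters and shows no binding.

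With TNF alone, 9 of the 10 genes rose at 6 h and all 10 rose at 24 h, against a background of 39.3% of all genes called in either direction at 6 h (18.8% raised) and 45.3% at 24 h (20.9% raised). The median log2 fold change of the 10 was 1.48 at 6 h and 1.87 at 24 h, while that of all genes was -0.04 and -0.09. The largest changes belonged to 2 inhibitors of the pathway, Nfkbie and Nfkbia, followed by the subunits of the non-canonical branch, Relb and Nfkb2. Summed macrophage markers, of which Lyz2 was the largest part, were also higher with TNF. They were 37095 to 39907 CPM in TNF_6h and 26717 to 31999 CPM in TNF_24h, against 20038 to 24301 CPM in Ctrl_0h. Their part in these results was not tested.

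**Figure D1:**
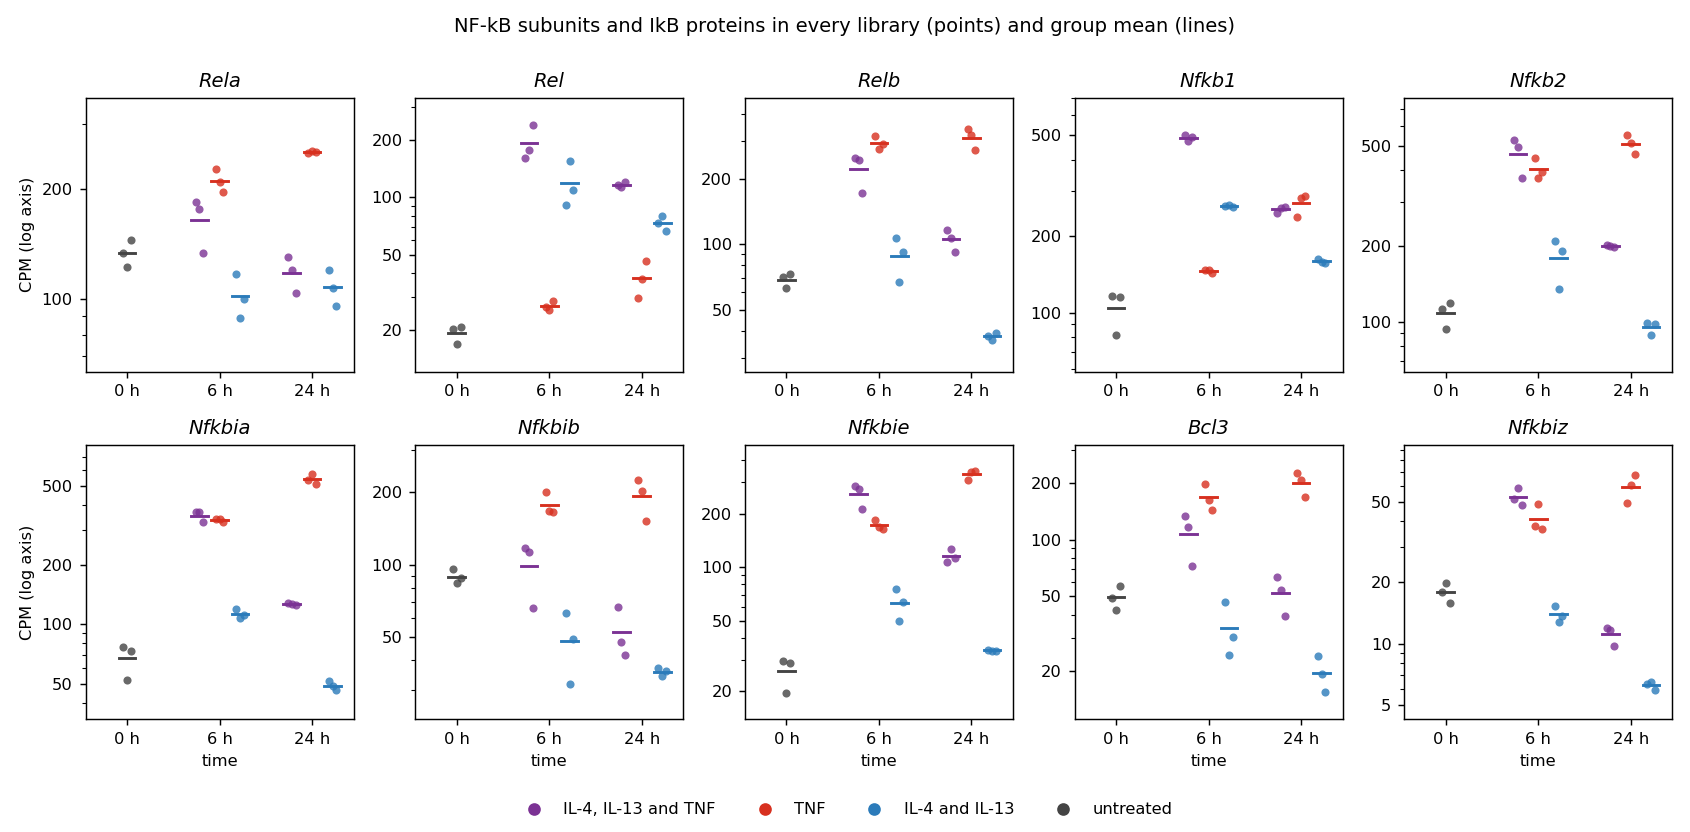
CPM of each member (log axis) at 0, 6 and 24 h, with 1 point per library, a line at the mean of each group of 3 and colours for the treatments. Rel and Nfkb1 reach their highest values in IL_TNF_6h, and the other members in TNF_24h.

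Among the cytoplasmic inhibitors, Nfkbie encodes IkB epsilon (chromosome 17, 45555700 to 45563169, GRCm38.p6). Its level was 185, 169 and 164 CPM in the TNF_6h libraries and 29.7, 19.5 and 28.9 CPM in the Ctrl_0h libraries. At 24 h it was 310, 341 and 347 CPM in the TNF_24h libraries. The groups do not overlap, and the changes were 2.73 ± 0.17 (6.64-fold, adjusted p = 3.08e-10) at 6 h and 3.68 ± 0.17 (12.8-fold, adjusted p = 5.15e-12) at 24 h. Nfkbia, which encodes IkB alpha, the inhibitor that is rebuilt fastest after a stimulus (chromosome 12, 55489409 to 55492647), was 533, 571 and 510 CPM in TNF_24h, against 77.2, 52.3 and 73 CPM in Ctrl_0h. That is a change of 2.99 ± 0.13, or 7.97-fold, with adjusted p = 9.83e-13. Nfkbib, which encodes IkB beta (chromosome 7, 28758251 to 28766644), rose less, with 225, 202 and 152 CPM in TNF_24h and 95.6, 84 and 88 CPM in Ctrl_0h. Its change was 1.11 ± 0.23 (2.16-fold, adjusted p = 6.47e-04). The TNF_24h libraries thus held 0.422, 0.354 and 0.298 counts of Nfkbib per count of Nfkbia, against 1.24, 1.61 and 1.21 in the Ctrl_0h libraries.

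The nuclear IkB-like proteins do not keep dimers in the cytoplasm. Bcl3 encodes a cofactor of p50 and p52 dimers (chromosome 7, 19808462 to 19822824), and it was 227, 208 and 168 CPM in TNF_24h, against 49.1, 42.6 and 57.1 CPM in Ctrl_0h. It rose by 2.02 ± 0.26 (4.05-fold, adjusted p = 2.65e-06). Nfkbiz encodes IkB zeta, a nuclear cofactor needed for secondary response genes such as Il6 (chromosome 16, 55811375 to 55838954). Its level was 49, 60.1 and 67.7 CPM in TNF_24h and 17.9, 19.8 and 15.9 CPM in Ctrl_0h, a change of 1.72 ± 0.14 (3.3-fold, adjusted p = 8.59e-09). All libraries of both genes lay higher in TNF_24h than in Ctrl_0h.

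Of the subunits, Relb and Nfkb2 form the main dimer of the non-canonical pathway. Relb (chromosome 7, 19606217 to 19629438) was 316, 274 and 291 CPM in TNF_6h and 70.5, 62.6 and 73.1 CPM in Ctrl_0h, a 4.27-fold rise (2.10 ± 0.17, adjusted p = 8.42e-09). Nfkb2 (chromosome 19, 46300994 to 46312400) was 445, 374 and 395 CPM in TNF_6h and 113, 94 and 119 CPM in Ctrl_0h, a 3.73-fold rise (1.90 ± 0.16, adjusted p = 1.51e-08). In neither gene did the 2 groups overlap. At 24 h the rises were 4.51-fold for Relb and 4.69-fold for Nfkb2.

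The subunits of the canonical pathway rose less. Rela (chromosome 19, 5637442 to 5648134) rose 1.57-fold at 6 h and 1.88-fold at 24 h, and its 3 TNF_24h libraries stood at 251, 253 and 252 CPM, against 134, 122 and 145 CPM in Ctrl_0h. Nfkb1 (chromosome 3, 135584655 to 135691969) was 147, 148 and 144 CPM in TNF_6h, against 116, 82.2 and 115 CPM in Ctrl_0h, and rose 1.41-fold. By 24 h it had reached 239, 284 and 289 CPM, 2.6-fold above Ctrl_0h. Rel, which encodes c-Rel (chromosome 11, 23736847 to 23770969), was 26.6, 25.7 and 28.4 CPM in TNF_6h and 20.4, 17 and 20.8 CPM in Ctrl_0h, and the change of 0.47 ± 0.19 did not pass the test (adjusted p = 0.0531). It passed in 6 of 14 alternative fits, none of which left out a single library, with adjusted p between 0.00234 and 0.175 over all 14. In the fit without the GC trend it was among 10 members that rose (50.5% of all genes called). At 24 h Rel was 29.5, 37.4 and 46.4 CPM in TNF_24h, 1.94-fold above Ctrl_0h (adjusted p = 3.53e-04).

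Between TNF_24h and TNF_6h, 4 of the 10 genes rose and none fell (23.6% of all genes called, 12.7% raised). They were Nfkbie (0.95 ± 0.16), Nfkb1 (0.89 ± 0.11), Nfkbia (0.68 ± 0.12) and Nfkbiz (0.52 ± 0.14). Relb moved by 0.08 ± 0.16 and Nfkbib by 0.12 ± 0.23, and for both the libraries of the 2 groups overlap. After removal of the GC trend, 8 of the 10 rose, with 32.0% of all genes called in that fit. The call of Nfkbiz was lost without TNF_6h replicate 1 (0.47), TNF_6h replicate 3 (0.44) or TNF_24h replicate 3 (0.41).

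Per kilobase of exon, the order of the genes differed between the groups. In Ctrl_0h, Rela led with 49.2 CPM per kilobase, followed by Nfkbia (42.8) and Nfkbib (41.1), and the lowest were Rel (6.94) and Nfkbiz (3.56). In TNF_24h, Nfkbia led with 341 CPM per kilobase, then Nfkb2 (155), Nfkbie (137) and Rela (92.8). Here too Rel (13.5) and Nfkbiz (11.7) were the lowest.

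When TNF was added to IL, all 10 genes rose at 6 h (14.1% of all genes called, 7.09% raised) and 8 rose at 24 h (11.1% called, 6.03% raised). The median log2 fold changes of the 10 were 1.35 and 0.95, against -0.01 and 0.00 for all genes. As with TNF alone, Nfkbie changed most. Summed dendritic cell markers, mostly Zbtb46 and Ccr7, were 23.5 to 28.4 CPM in IL_TNF_24h and 2.36 to 3.8 CPM in IL_24h, and their part was not tested.

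**Figure D2:**
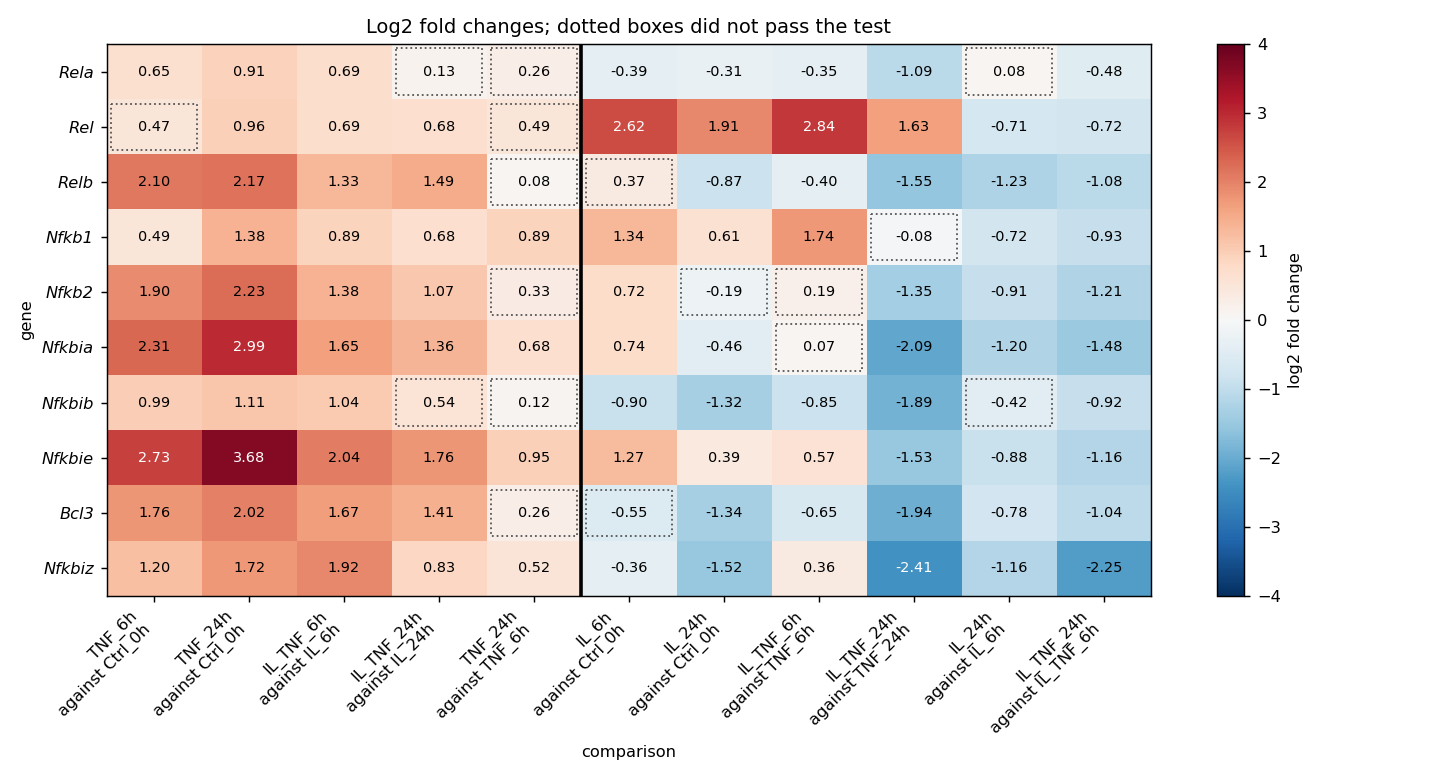
Log2 fold changes of the 10 members in 11 comparisons of a pair of groups, with the colour from blue (lower) to red (higher) and dotted boxes around values that did not pass the test. The 5 comparisons left of the black line stay within a set of libraries and hold no negative value, while those to its right cross sets.

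At 6 h, Nfkbie was 285, 275 and 212 CPM in IL_TNF_6h, against 75, 49.7 and 63.3 CPM in IL_6h (4.11-fold, adjusted p = 3.10e-08). Nfkbiz was 51.5, 58.6 and 48.1 CPM in IL_TNF_6h and 15.3, 12.8 and 13.7 CPM in IL_6h, the second largest change among the 10 (3.78-fold, adjusted p = 1.17e-08). Nfkbia was 366, 366 and 328 CPM in IL_TNF_6h and 120, 107 and 111 CPM in IL_6h (3.13-fold, adjusted p = 9.03e-09). In these 3 genes every IL_TNF_6h library lay above every IL_6h library. Bcl3 rose 3.17-fold, Nfkb2 2.6-fold, Relb 2.52-fold, Nfkbib 2.06-fold, Nfkb1 1.86-fold, Rela 1.62-fold and Rel 1.61-fold. The call of Nfkbib was lost when only the compared groups were fitted (1.05). That of Rel was lost there too (0.69), and without IL_6h replicate 1 (0.53), IL_6h replicate 3 (0.63) or IL_TNF_6h replicate 3 (0.51).

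At 24 h, Nfkbie was 107, 126 and 112 CPM in IL_TNF_24h and 34.3, 33.9 and 33.8 CPM in IL_24h (3.39-fold, adjusted p = 2.47e-07). Relb was 117, 107 and 92.5 CPM in IL_TNF_24h and 37.8, 36.2 and 39.1 CPM in IL_24h (2.8-fold, adjusted p = 2.43e-06). Nfkbia was 128, 127 and 125 CPM in IL_TNF_24h and 51.7, 49 and 46.5 CPM in IL_24h (2.57-fold, adjusted p = 1.25e-07). In these 3 genes every IL_TNF_24h library lay above every IL_24h library. Rela, at 130, 120 and 104 CPM in IL_TNF_24h and 120, 107 and 95.9 CPM in IL_24h, overlapped between the groups and did not pass the test (0.13 ± 0.13, adjusted p = 0.707). Nfkbib did not pass either (0.54 ± 0.23, adjusted p = 0.166), although its 3 IL_TNF_24h libraries lay above the IL_24h libraries, and it was called with the GC trend taken out (0.56), where 9 members rose and 17.3% of all genes were called. Rel rose 1.6-fold (0.68 ± 0.18), a call lost without IL_24h replicate 1 (0.68), IL_24h replicate 3 (0.61) or IL_TNF_24h replicate 3 (0.65). Nfkb1 (0.68 ± 0.11), Nfkb2 (1.07 ± 0.15), Bcl3 (1.41 ± 0.25) and Nfkbiz (0.83 ± 0.14) rose as well.

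Whether IL changed the response to TNF was tested as an interaction, where the log2 change for TNF in cells without IL is subtracted from that in cells with IL. Each effect lies within a set, but the effects with and without IL lie in different sets. A change by IL and the library set therefore cannot be told apart, and the TNF effect without IL was measured against cells at 0 h. At 24 h the effect was smaller with IL for 7 of the 10 genes and larger for none (24.1% of all genes called, 12.5% negative). The difference was -1.92 ± 0.23 for Nfkbie (adjusted p = 4.88e-06), where TNF raised the gene 3.39-fold with IL and 12.8-fold without it. For Nfkbia it was -1.63 ± 0.17 (adjusted p = 1.08e-06), from rises of 2.57-fold with IL and 7.97-fold without it. Nfkb2 (-1.16 ± 0.22), Nfkbiz (-0.89 ± 0.20), Rela (-0.78 ± 0.19), Nfkb1 (-0.69 ± 0.16) and Relb (-0.69 ± 0.23) followed. The call of Relb was lost without Ctrl_0h replicate 2 (-0.62), IL_24h replicate 1 (-0.69) or 3 (-0.67), IL_TNF_24h replicate 2 (-0.70) or 3 (-0.61), and TNF_24h replicate 1 (-0.62) or 2 (-0.67). For Bcl3 (-0.61 ± 0.35), Nfkbib (-0.57 ± 0.32) and Rel (-0.28 ± 0.26) the difference did not pass the test. With the GC trend taken out, 9 of the 10 were called, all negative, and 33.4% of all genes were called in that fit.

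**Figure D3:**
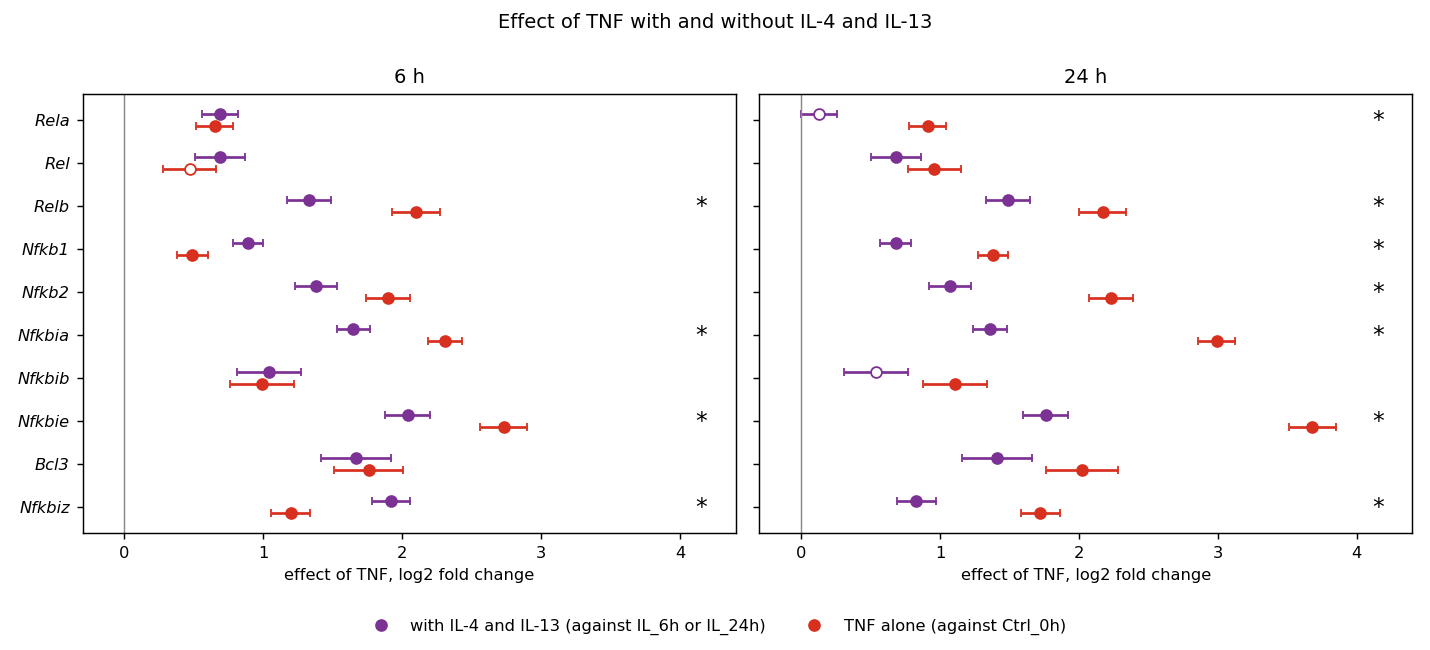
Log2 fold change for TNF at 6 and 24 h for each member, in purple with IL-4 and IL-13 and in red without them, with bars of 1 standard error, open circles where the test was not passed and stars where both effects differed in the test. At 24 h all 10 purple points lie left of the red ones, with 7 stars, and at 6 h Nfkbiz has a star with the purple point on the right.

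At 6 h the picture was mixed, with 3 genes less raised with IL and 1 more raised (18.4% of all genes called, 9.13% negative and 9.27% positive). The smaller effects were those of Relb (-0.76 ± 0.23, adjusted p = 0.0232), Nfkbie (-0.69 ± 0.22, adjusted p = 0.0357) and Nfkbia (-0.67 ± 0.17, adjusted p = 0.00803). Nfkbiz went the other way, with a rise of 3.78-fold with IL and 2.3-fold without it, a difference of 0.72 ± 0.20 (adjusted p = 0.0155). Of these 4, Nfkbia was called in all 20 alternatives. Nfkbie was lost in 9, 8 of which left out 1 library (Ctrl_0h replicate 2, IL_6h replicates 1 and 3, IL_TNF_6h replicates 2 and 3, or any of TNF_6h), with values between -0.75 and -0.52. Relb was lost in 5, among them without Ctrl_0h replicate 2 (-0.70), IL_6h replicate 1 (-0.61) or 3 (-0.74) and TNF_6h replicate 1 (-0.71). Nfkbiz was lost in 3, among them without IL_6h replicate 2 (0.58) or IL_TNF_6h replicate 2 (0.63). After removal of the GC trend, 4 genes were less raised and 1 more raised (29.1% of all genes called). Between the times, the effect of TNF with IL changed for 1 gene (3.68% of all genes called, 1.78% negative): for Nfkbiz it was 1.09 lower on the log2 scale at 24 h than at 6 h (± 0.20, adjusted p = 0.00296). This change was called in all 20 alternatives. The libraries with IL at 6 h and at 24 h lie in different sets, so time and the set cannot be told apart here.

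With IL alone, the members split. At 6 h, 5 rose and 3 fell (64.5% of all genes called, 32.8% raised and 31.6% lowered), and at 24 h, 3 rose and 6 fell (64.3% called, 31.7% raised and 32.6% lowered). Most of the 15581 genes tested were thus called, and IL and the library set cannot be told apart. Summed macrophage markers were 17398 to 19930 CPM in IL_6h and 11567 to 12463 CPM in IL_24h, against 20038 to 24301 CPM in Ctrl_0h, and their part was not tested. With the GC trend taken out, 8 rose and 1 fell at 6 h (67.4% of all genes called in that fit), and 5 rose and 4 fell at 24 h (68.7% called).

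Rel changed most as fitted, while with the GC trend taken out Nfkbiz changed more at 24 h (-1.64). The level of Rel was 91.6, 156 and 110 CPM in IL_6h and 73.5, 79.6 and 66.4 CPM in IL_24h, against 20.4, 17 and 20.8 CPM in Ctrl_0h. The changes were 2.62 ± 0.19 at 6 h (6.14-fold, adjusted p = 1.71e-09) and 1.91 ± 0.19 at 24 h (3.77-fold, adjusted p = 7.81e-08). With the GC trend taken out they were 2.20 and 1.52, both called. Rel reached 161, 177 and 239 CPM in IL_TNF_6h and 116, 113 and 121 CPM in IL_TNF_24h. Every library with IL thus lay above every library without it, of which the highest was a TNF_24h library with 46.4 CPM.

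Nfkb1 was 263, 266 and 261 CPM in IL_6h, against 116, 82.2 and 115 CPM in Ctrl_0h (2.53-fold, adjusted p = 1.02e-08). Its change was 1.34 ± 0.11, and 1.47 with the GC trend taken out. In IL_TNF_6h it was 501, 475 and 491 CPM, the highest level of any group, and 147, 148 and 144 CPM in TNF_6h. Nfkbie rose in IL_6h as well (1.27 ± 0.16, adjusted p = 1.43e-06), with Nfkbia (0.74 ± 0.12) and Nfkb2 (0.72 ± 0.15). Relb was 0.37 ± 0.16 and not called (adjusted p = 0.0522), but was called in some alternatives, such as that without IL_6h replicate 2 (0.58). In IL_24h, Nfkb1 (0.61 ± 0.11) and Nfkbie (0.39 ± 0.16) rose, but the call of Nfkbie was lost without Ctrl_0h replicate 2 (0.21) or IL_24h replicate 1 (0.39) or 3 (0.40). With the GC trend taken out, the changes in IL_6h were 1.6 for Nfkbie, 0.85 for Nfkbia, 1.39 for Nfkb2 and 0.72 for Relb, and those in IL_24h 0.71 for Nfkb1 and 0.70 for Nfkbie, all called.

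The 4 members with the highest GC content changed sign or call between the fits. Rela fell in IL_6h (-0.39 ± 0.13) and IL_24h (-0.31 ± 0.13), but with the GC trend taken out it was higher and called, by 0.32 at both times. As fitted, the call at 6 h was lost without Ctrl_0h replicate 3 (-0.32) or IL_6h replicate 2 (-0.26) or 3 (-0.37), and that at 24 h without Ctrl_0h replicate 1 (-0.30) or 3 (-0.24) or IL_24h replicate 2 (-0.26) or 3 (-0.22). Bcl3 was -0.55 ± 0.25 in IL_6h (adjusted p = 0.0592) as fitted and 0.52, called, with the trend out. As fitted it was called as lower in 7 of 14 alternatives, with values between -0.85 and -0.51, which include those without Ctrl_0h replicate 2 (-0.65) or IL_6h replicate 1 (-0.85). In IL_24h Bcl3 fell as fitted (-1.34 ± 0.25), but was -0.37 and not called with the trend out. Nfkbib fell in IL_6h (-0.90 ± 0.23), which was -0.29 and not called with the trend out, and in IL_24h (-1.32 ± 0.23), which remained called at -0.74. Nfkb2 in IL_24h was -0.19 ± 0.15 as fitted (adjusted p = 0.285) and 0.43, called, with the trend out.

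Nfkbiz, whose GC content of 50.1% lies in the middle group, fell in both fits. It was 6.29, 6.47 and 5.94 CPM in IL_24h and 17.9, 19.8 and 15.9 CPM in Ctrl_0h. That is a change of -1.52 ± 0.14 (adjusted p = 4.64e-08), and -1.64 with the trend out. In IL_6h the fall was smaller (-0.36 ± 0.14, adjusted p = 0.0333), and 7 of 14 alternatives did not call it, among them those without Ctrl_0h replicate 1 (-0.34) or 2 (-0.28) or IL_6h replicate 2 (-0.25) or 3 (-0.34). With the trend out it was -0.46 and called. Relb (-0.87 ± 0.16, and -0.53 with the trend out) and Nfkbia (-0.46 ± 0.12, and -0.38) also fell in IL_24h in both fits.

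**Figure D4:**
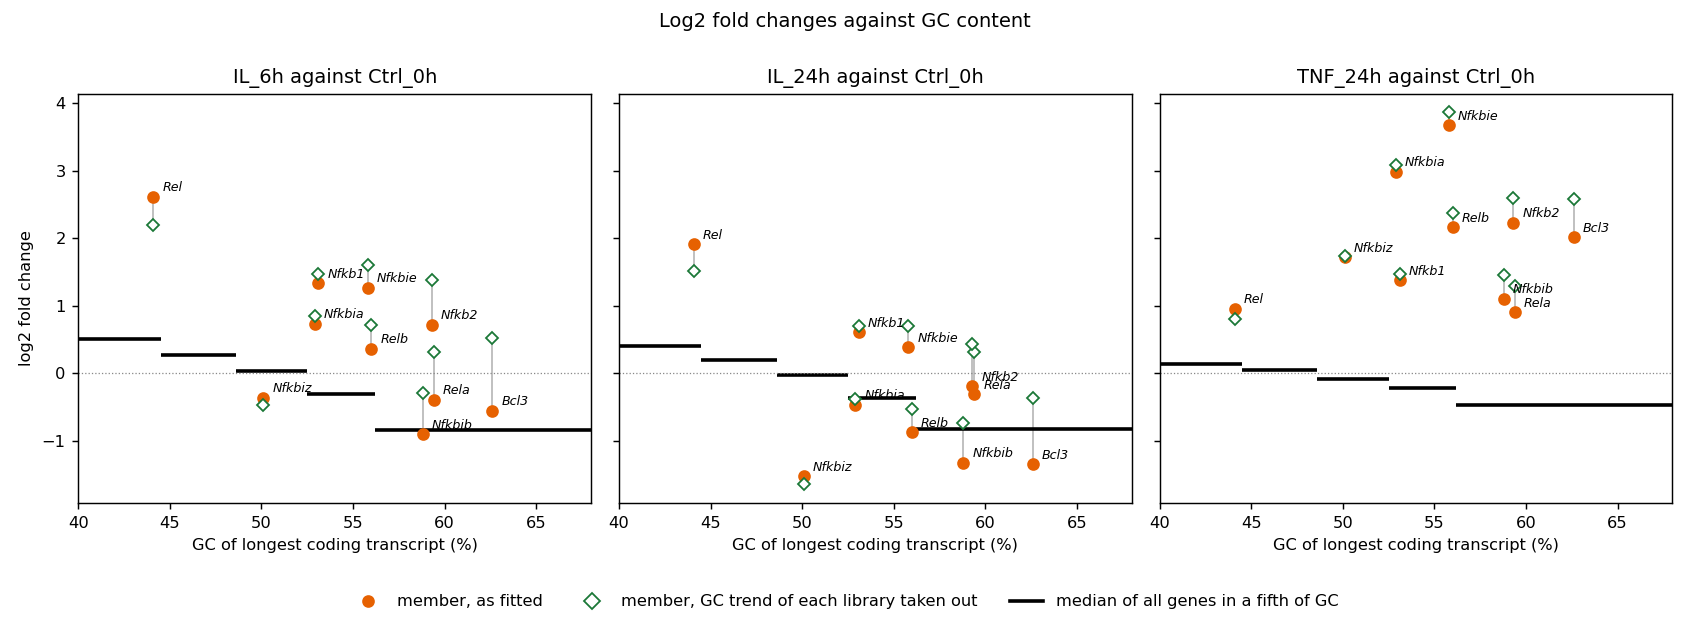
Log2 fold changes of the members in IL_6h, IL_24h and TNF_24h against Ctrl_0h, plotted against the GC content of the longest coding transcript, as fitted (orange circles) and with the GC trend of each library taken out (green diamonds). Black lines are medians of all genes in 5 groups by GC content, and they slope most in IL_6h and IL_24h, where Rela crosses 0 between the fits.

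Adding IL to TNF gave 4 raised and 4 lowered members at 6 h (57.1% of all genes called, 29.7% raised and 27.5% lowered) and 1 raised and 8 lowered at 24 h (56.3% called, 29.2% raised and 27.1% lowered). At 6 h, Rel (2.84 ± 0.20) and Nfkb1 (1.74 ± 0.12) were higher in IL_TNF_6h than in TNF_6h, and remained called with the GC trend taken out (2.42 and 1.85). Nfkbie (0.57 ± 0.16, and 0.84 with the trend out) was higher and Nfkbib (-0.85 ± 0.23, and -0.38) lower in both fits. Nfkb2 was not called as fitted (0.19 ± 0.15) and was called as higher with the trend out (0.72). Nfkbia, at 366, 366 and 328 CPM in IL_TNF_6h and 340, 339 and 327 CPM in TNF_6h, overlapped between the groups (0.07 ± 0.12, adjusted p = 0.611, and 0.17, not called, with the trend out). As fitted, Bcl3 (-0.65 ± 0.25), Relb (-0.40 ± 0.16) and Rela (-0.35 ± 0.13) were lower and Nfkbiz (0.36 ± 0.14) higher. Without TNF_6h replicate 1 none of these 4 was called (Bcl3 -0.51, Relb -0.34, Rela -0.29 and Nfkbiz 0.31). Calls were also lost without IL_TNF_6h replicate 1 (Nfkbiz 0.38), 2 (Bcl3 -0.71, Nfkbiz 0.28) or 3 (Bcl3 -0.45, Relb -0.27, Rela -0.25), and without TNF_6h replicate 2 (Bcl3 -0.67, Relb -0.44, Rela -0.36) or 3 (Relb -0.41, Nfkbiz 0.29). None of these 4 was called with the trend out, where Relb was -0.12, Nfkbiz was 0.27, and Bcl3 (0.11) and Rela (0.18) had the other sign. In that fit 4 members were raised and 1 lowered (60.8% of all genes called).

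Summed macrophage markers were 18620 to 20357 CPM in IL_TNF_6h, against 37095 to 39907 CPM in TNF_6h, and 11809 to 12328 CPM in IL_TNF_24h, against 26717 to 31999 CPM in TNF_24h. Summed dendritic cell markers were 23.5 to 28.4 CPM in IL_TNF_24h, against 0.861 to 2.34 CPM in TNF_24h. The part of these markers in the results was not tested.

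At 24 h the 5 IkB genes were all lower in IL_TNF_24h. Nfkbia was 128, 127 and 125 CPM in IL_TNF_24h, against 533, 571 and 510 CPM in TNF_24h (-2.09 ± 0.12, adjusted p = 6.24e-11, and -2.09 with the GC trend taken out). Nfkbiz was 11.9, 11.6 and 9.77 CPM in IL_TNF_24h, against 49, 60.1 and 67.7 CPM in TNF_24h (-2.41 ± 0.15, adjusted p = 1.06e-10, and -2.52 with the trend out). Bcl3 (-1.94 ± 0.25), Nfkbib (-1.89 ± 0.24), Relb (-1.55 ± 0.16), Nfkbie (-1.53 ± 0.16), Nfkb2 (-1.35 ± 0.15) and Rela (-1.09 ± 0.13) were lower in IL_TNF_24h in both fits. Their values with the trend out were -1.47 for Bcl3, -1.64 for Nfkbib, -1.42 for Relb, -1.41 for Nfkbie, -1.07 for Nfkb2 and -0.82 for Rela. Rel was higher (1.63 ± 0.19, and 1.41 with the trend out), and Nfkb1 did not pass the test (-0.08 ± 0.11, adjusted p = 0.559, and -0.08, not called, with the trend out).

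From 6 to 24 h with IL most members fell. In IL_24h, 8 fell against IL_6h and none rose (24.0% of all genes called, 11.8% lowered). In IL_TNF_24h all 10 fell against IL_TNF_6h (28.7% called, 13.3% lowered), with a median log2 fold change of -1.06, against -0.01 for all genes. Nfkbiz fell most, to 11.9, 11.6 and 9.77 CPM in IL_TNF_24h, against 51.5, 58.6 and 48.1 CPM in IL_TNF_6h (-2.25 ± 0.15, adjusted p = 7.32e-10). Nfkbia (-1.48 ± 0.12) and Nfkb2 (-1.21 ± 0.15) came next. With the GC trend taken out these 3 values were -2.27, -1.52 and -1.27. Rela fell least (-0.48 ± 0.13, and -0.54 with the trend out), and its call was lost without IL_TNF_6h replicate 1 (-0.39) or 2 (-0.43) or IL_TNF_24h replicate 3 (-0.39). In IL_24h against IL_6h, the call of Bcl3 (-0.78 ± 0.25) was lost without IL_6h replicate 1 (-0.48) or IL_24h replicate 2 (-0.77) or 3 (-0.64), and that of Rel (-0.71 ± 0.18) without IL_6h replicate 2 (-0.46). With the trend out these were -0.89 for Bcl3 and -0.68 for Rel. The summed macrophage markers given above were also lower at 24 h than at 6 h with IL, and their part was not tested. In the fit without the GC trend, 9 members fell in IL_24h against IL_6h (34.0% of all genes called). With TNF alone, none of the 10 was called as lower at 24 h. Time and the library set cannot be told apart in the comparisons with IL.

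Ratios of counts within a library do not depend on how libraries are scaled. Rel gave 0.785 to 1.76 counts per count of Rela in IL_6h and 0.874 to 1.78 in IL_TNF_6h, against 0.14 to 0.152 in Ctrl_0h. In IL_24h and IL_TNF_24h the ratios were 0.612 to 1.16, and with TNF alone they were 0.117 to 0.184. Thus the ratio of Rel to Rela separated all 12 libraries with IL from all 9 without it, with or without TNF. The libraries with IL lie in other sets, so IL and the set cannot be told apart in this or the next ratio. Nfkb2 gave 2.52 to 3.03 counts per count of Nfkb1 in TNF_6h and 0.977 to 1.14 in Ctrl_0h, but 0.755 to 1.05 in IL_TNF_6h. Both ratios pair a gene of higher with one of lower GC content, and the part of the GC trend in them was not tested.

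**Figure D5:**
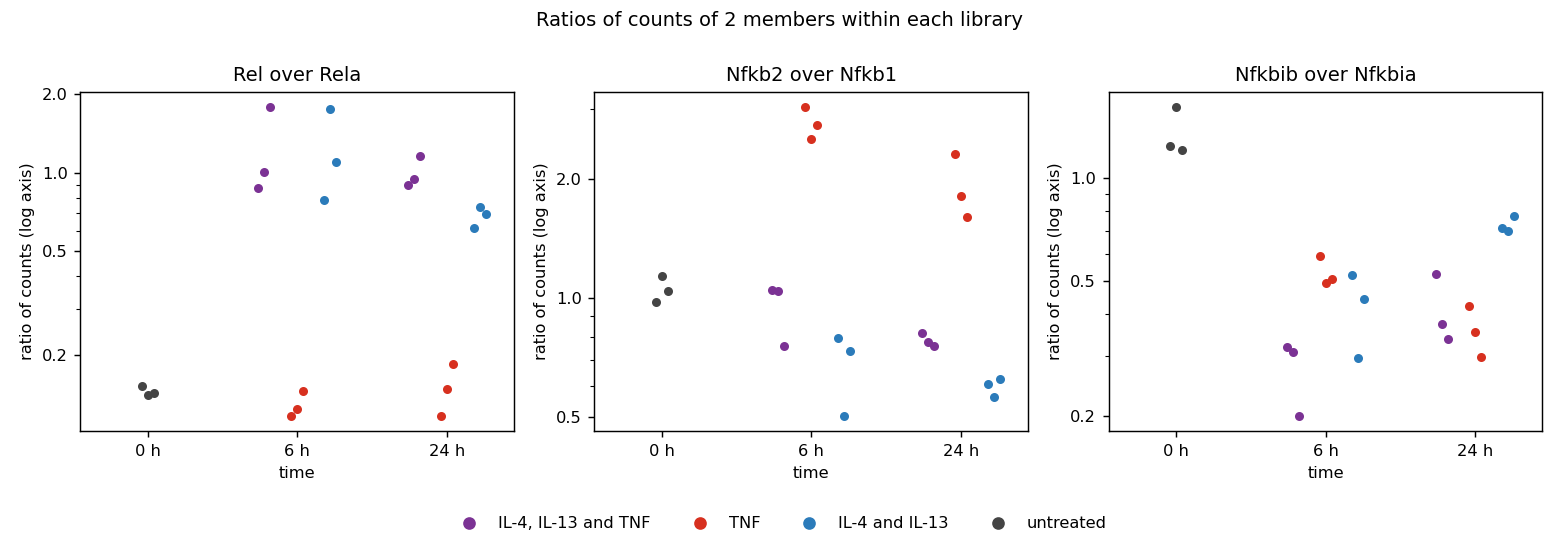
Ratio of counts (log axis) of 2 members in each of the 21 libraries at 0, 6 and 24 h, coloured by treatment. Rel over Rela lies between 0.612 and 1.78 in libraries with IL-4 and IL-13 and between 0.117 and 0.184 in the others, and Nfkb2 over Nfkb1 is highest with TNF alone.

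Over the 21 libraries, Nfkb2 and Nfkbia varied together most closely (Pearson r of log2 CPM 0.985), and Rel and Nfkbib least (-0.545). Rel and Nfkb1 correlated at 0.815. Among 9042 genes with at least 10 CPM in a group, those most like Nfkbie were Icam1 (0.982), which encodes an adhesion molecule, and Stx11 (0.981). Most like Relb were Traf1 and Traf2 (0.975 each), which encode adaptors of TNF receptors, and most like Nfkbiz were Marcksl1 (0.977) and Tlr2 (0.974). Most like Rel were Zfp991 (0.99) and Braf (0.985). These libraries share sets, groups and GC trends, so the values describe only likeness of pattern.

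Other genes of the pathway were counted by list, and their values are as fitted. With TNF alone at 24 h, 45.3% of all genes were called and 20.9% raised. Of the receptors and adaptors, 9 of 11 rose and 1 fell. Of the kinase list, which holds kinases and partner proteins that are not kinases, 7 of 10 genes rose and 1 fell. Of the ubiquitin machinery and inhibitors, 9 of 11 genes rose and 1 fell. Of 2 other IkB-like genes, Nfkbid and Nfkbil1, 1 rose. Tnfaip3, which encodes the inhibitor A20, averaged 136 CPM in TNF_24h and 7.6 CPM in Ctrl_0h (4.16 ± 0.17, adjusted p = 7.61e-13). Among the receptors and adaptors, Birc3, which encodes a ubiquitin ligase recruited to TNF receptors, averaged 203 CPM in TNF_24h and 22.6 CPM in Ctrl_0h (3.17 ± 0.15), and among the kinases Ikbke, related to the IkB kinases, averaged 553 CPM in TNF_24h and 72.4 CPM in Ctrl_0h (2.93 ± 0.13). Of 20 textbook targets, 18 were tested and all 18 rose.

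With IL at 24 h, 11.1% of all genes were called and 6.03% raised. TNF raised 5 of the 11 receptors and adaptors, 3 of the 10 kinase list genes and 2 of the 11 ubiquitin genes. It raised 10 of the 18 targets tested and lowered 3, and neither of the 2 other IkB-like genes was called. Tnfaip3 averaged 108 CPM in IL_TNF_24h and 25.9 CPM in IL_24h (2.06 ± 0.15). At 24 h the effect with IL minus that without it was negative for 6 receptors and adaptors, 6 kinase list genes and 8 ubiquitin genes. It was also negative for 14 targets and 1 other IkB-like gene, and positive for 1 kinase list gene and 1 ubiquitin gene. Of all genes, 24.1% were called and 12.5% were negative. A negative difference can be a smaller rise or a change of direction, and a positive one a smaller fall. Tnfaip3 had a difference of -2.11 ± 0.21 and Ikbke of -2.23 ± 0.17. Their direction is the one found for the 7 called members. At 6 h the difference was negative for 4 targets and positive for 2 (18.4% of all genes called, 9.13% negative and 9.27% positive).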

How the data were processed

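The authors deposited a table of raw counts of reads per gene, with no normalization, for 21 libraries. The submitters' processing notes name GRCm38 as the genome, and the tools TopHat2 (2.0.12), Subread (1.6.3, with featureCounts) and edgeR (3.28.1). Which gene models were used, and how strand and read pairs were handled, is not given in the sources used here. The table held 30373 values equal to 2 and 17808 equal to 1. Without strand, reads of genes that overlap Nfkb1 (Gm46827), Nfkb2 (Psd and 4833438C02Rik), Nfkbib (Ccer2) and Bcl3 (Gm16174) cannot be told apart from theirs.

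Identifiers were matched to symbols for 32782 of 47069, and exon lengths and transcript GC content came from GENCODE vM1. With R 4.3.3 and edgeR 4.0.16, genes were filtered by filterByExpr, libraries scaled by TMM, and 1 term per group fitted to all libraries with the quasi-likelihood F test, adjusted by Benjamini and Hochberg over 15581 genes in each of 14 comparisons. Alternatives were DESeq2 1.42.0 (size factors, Wald test), other filters, the compared groups alone, the replicate block and libraries left out. The GC fit, with a lowess trend (span 0.4) per library as an offset, was added after seeing the data.

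The members and lists were chosen with earlier results of these data known. All members are named. From each pathway list, up to 4 called genes per comparison with the largest change and at least 10 CPM could be named, and for each member the 2 most similar genes.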

Additional observations from a re-analysis of the deposited data

Results flagged for a closer look

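The effect of TNF differed with and without IL in a test of the difference itself for 11 results, given as the log2 effect with IL minus the effect without it. At 24 h the values were -1.92 for Nfkbie, -1.63 for Nfkbia, -1.16 for Nfkb2, -0.89 for Nfkbiz, -0.78 for Rela, -0.69 for Relb and -0.69 for Nfkb1. At 6 h they were -0.76 for Relb, -0.69 for Nfkbie, -0.67 for Nfkbia and 0.72 for Nfkbiz. The effect of TNF with IL also differed between 24 h and 6 h for Nfkbiz, by -1.09. With the GC trend of each library taken out, each of these 12 results was called with the same sign. Each compares effects from different library sets, so IL or time and the set cannot be told apart.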

How the results depend on the processing

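The members called in IL_TNF_6h against TNF_6h were 8, but 5 with no filter, 5 with the GC trend taken out and 4 to 7 with 1 library left out. Those of the interaction at 6 h were 4, but 2 with the compared groups alone and 2 to 4 with 1 library left out. Other members gained a call there. Nfkb1 (0.40 ± 0.16, not called as fitted) was called in the DESeq2 Wald test (0.41), with the strict filter (0.44) and without Ctrl_0h replicate 2 (0.54). Nfkb2 (-0.52 ± 0.21, not called as fitted) was called with the GC trend taken out (-0.67) and without IL_6h replicate 2 (-0.76). Both were called with 5 libraries left out together (0.47 and -0.55). The change of the TNF effect with time was called for 1 member, for 3 without 5 libraries left out together (Ctrl_0h replicate 2, TNF_6h replicate 3, IL_6h replicate 2, IL_TNF_6h replicate 3 and IL_TNF_24h replicate 1), for 2 in the DESeq2 Wald test and for 1 to 2 with 1 library left out. In TNF_24h against TNF_6h 4 members were called, and 8 with the GC trend taken out. The cause was not tested. Of 140 log2 fold changes, 6 changed sign while called in at least 1 of the fits compared, all with the GC trend taken out: Rela (0.32) and Bcl3 (0.52) in IL_6h, Rela (0.32) and Nfkb2 (0.43) in IL_24h, and Rela (0.18) and Bcl3 (0.11) in IL_TNF_6h against TNF_6h. Some values called in neither fit also crossed 0. Over 63 pairs of libraries with the same replicate number the median correlation was 0.00665 (-0.31 to 0.363), and 6 were over 0.1. Pairs with different numbers were not set beside them, so this does not settle whether replicate numbers pair the samples. With the replicate block 137 of the 140 kept their call and 3 more were called, and 10 members were called in TNF_6h against Ctrl_0h. Counting error is 6.02% at the lowest member count and 0.699% at the highest. The coefficient of variation that edgeR fitted between libraries of a group, in common for all genes tested, was 22.8%. It is not the spread of each member. Nfkbiz in IL_24h had a standard deviation of 0.27 on a mean of 6.23 CPM.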
